A study of Mus musculus with 16 samples.

Results

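Neurexins and contactin-associated proteins are single-pass adhesion receptors of neurons that share laminin-type domains in their extracellular part. Neurexins sit mainly in the presynaptic membrane, where they bind neuroligins, LRRTM proteins, cerebellins and other ligands across the synaptic cleft, and each neurexin gene can be read from an upstream and from an internal promoter. Contactin-associated proteins pair with contactins, GPI-anchored adhesion molecules, and the best known of them organise the axon around the node of Ranvier. These genes are read mainly in neurons, and most of them are very long.

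The members were 2 neurexin genes (Nrxn2 and Nrxn3) and 5 genes for contactin-associated proteins (Cntnap2, Cntnap4, Cntnap5a, Cntnap5b and Cntnap5c), 7 of 34614 protein-coding and lncRNA genes of the annotation. They were taken by name, and every position listed between the first and the last annotated base of each gene was counted, over the gene and in 100 kb windows. What was measured was not expression but new DNA methylation work by one enzyme: E14TG2a mouse embryonic stem cells whose Dnmt1, the maintenance DNA methyltransferase, carried the N1580A substitution on one allele were electroporated with 1 mM Ado-6-azide, a cofactor analogue, and their DNA was taken 3 h later. The engineered enzyme puts an azide group on the CpG sites it acts on, and those sites were tagged, enriched and sequenced. The files list each labelled CpG position with its read count.

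The 16 libraries fall into 7 groups. Het is a triplicate of the heterozygous N1580A line, days 0, 2, 4 and 8 are duplicates of heterozygous cells passing out of the naive ground state towards the primed state, and WT (3 libraries) and WT control (2 libraries) are cells with wild-type Dnmt1. The labels do not give the culture state of the Het triplicate, what sets WT apart from WT control, whether the knock-in is 1 clone, or whether replicates are separate cultures, and a p-value then speaks to the spread among the libraries at hand, which may be technical only. All the knock-in cells keep 1 unmodified Dnmt1 allele. The files hold genomic DNA only, so the cell state was not checked with marker genes.

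Depth differed between groups. The Het libraries held 19127067, 25175264 and 21836296 reads, the day libraries between 4202118 (day 0) and 12598003 (day 8), and the wild-type libraries between 1640 and 22890. Day 8 listed 3065096 and 2602884 distinct positions at 4.11 and 4.05 reads each, and day 0 listed 390158 and 407127 at 10.8 and 11.98 reads each. Levels are therefore given as RPM (reads per 1000000 reads) or PPM (positions per 1000000 listed positions) of the same library, and the part of this depth difference in the results was not tested.

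On the mm10 coordinates of the RefSeq annotation (GRCm38.p6), Cntnap2 was the longest member at 2241 kb (chr6:45060061-47301393), followed by Nrxn3 at 1612 kb (chr12:88722701-90334935). Cntnap5a (chr1:115684737-116587323), Cntnap5b (chr1:99772246-100490599) and Cntnap5c (chr17:57769074-58417953) span 903, 718 and 649 kb. Cntnap4 (chr8:112569798-112882707) spans 313 kb and Nrxn2 (chr19:6418756-6533217) spans 114 kb. Other annotated genes overlap 5 of the 7 members, 11 overlaps in all, of which 10 are with lncRNA genes and 1 is with the protein-coding gene Gm29667 inside Cntnap5b. Exons and introns were not separated.

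Promoter windows of 300 bases (250 before and 50 after an annotated start) were at hand for 3 members, as 6 windows from RefSeq on GRCm38.p6. They are shown because the label at member starts can be read base by base in them: every CG is in capitals, all are on the plus strand, and the 5 windows printed are the 3 of Nrxn3, the upstream window of Cntnap2 and that of Cntnap5b.
Nrxn3 chr12:88794254-88794553: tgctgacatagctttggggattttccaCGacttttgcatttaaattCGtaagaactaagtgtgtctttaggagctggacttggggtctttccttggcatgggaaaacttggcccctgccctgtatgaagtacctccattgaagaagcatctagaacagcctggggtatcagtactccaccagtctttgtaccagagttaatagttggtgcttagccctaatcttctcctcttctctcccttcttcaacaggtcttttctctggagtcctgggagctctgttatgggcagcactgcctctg
Nrxn3 chr12:88953140-88953439: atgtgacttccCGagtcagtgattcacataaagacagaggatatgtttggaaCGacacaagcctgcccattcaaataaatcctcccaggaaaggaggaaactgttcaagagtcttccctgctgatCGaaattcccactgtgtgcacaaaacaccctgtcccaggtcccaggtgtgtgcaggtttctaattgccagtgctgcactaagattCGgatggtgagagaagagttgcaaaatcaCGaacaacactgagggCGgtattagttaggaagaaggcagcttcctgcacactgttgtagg
Nrxn3 chr12:89812233-89812532: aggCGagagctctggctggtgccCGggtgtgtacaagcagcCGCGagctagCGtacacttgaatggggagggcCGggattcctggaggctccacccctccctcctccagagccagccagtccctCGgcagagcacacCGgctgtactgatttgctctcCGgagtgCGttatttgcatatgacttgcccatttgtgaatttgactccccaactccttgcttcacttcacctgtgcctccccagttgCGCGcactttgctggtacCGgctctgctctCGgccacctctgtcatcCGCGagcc
Cntnap2 chr6:45059811-45060110: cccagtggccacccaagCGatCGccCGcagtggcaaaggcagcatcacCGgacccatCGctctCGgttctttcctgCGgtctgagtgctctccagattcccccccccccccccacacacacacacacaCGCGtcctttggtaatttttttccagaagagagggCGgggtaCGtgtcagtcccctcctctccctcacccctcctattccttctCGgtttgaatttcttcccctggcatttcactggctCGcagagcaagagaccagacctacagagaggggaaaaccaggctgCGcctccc
Cntnap5b chr1:99772151-99772450: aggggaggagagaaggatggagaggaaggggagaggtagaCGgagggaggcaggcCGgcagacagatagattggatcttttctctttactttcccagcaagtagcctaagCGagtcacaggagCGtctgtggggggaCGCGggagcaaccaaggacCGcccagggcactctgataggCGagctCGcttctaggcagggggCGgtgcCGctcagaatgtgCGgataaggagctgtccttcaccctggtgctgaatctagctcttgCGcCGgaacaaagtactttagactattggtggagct

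The 3 Nrxn3 windows differed in how much label they held. In the first, both of its 2 CGs were listed in at least 1 of the 11 knock-in libraries, at bases 28 and 47 of the window. In the second, 4 of 6 CGs were listed, at bases 12, 126, 211 and 256, with 59 reads in all. The last window lies around the most downstream annotated start and is the richest in CG, and none of its 16 CGs was listed in any of the 11 knock-in libraries.

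The Cntnap2 window held 14 CGs, of which 5 were listed, each in 1 library, and a second Cntnap2 window at chr6:47244146-47244445 had 0 of 3 listed. The Cntnap5b window also held 14 CGs, and none was listed. Over all 6 windows, 11 of 55 CGs (20%) were listed and 3 windows had no listed CG. Among the 32851 RefSeq promoter windows of this length, 12.8% of 361339 CGs were listed in a knock-in library and 47% of windows had no listed CG. All 49113 listed positions inside these windows fell on the C of a CG. Single CGs carried few reads, so an unlisted CG may only have been missed at this depth. No wild-type library listed a CG in the members' windows. These libraries listed only 960 to 9150 positions over the genome, too few to show background in 55 CGs.

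Just downstream of chr12:88794504, the most upstream of the 3 Nrxn3 starts with a promoter window and inside the gene, whose first annotated base is chr12:88722701, the label was dense. The first and the second kilobase after that start held 37 and 27 listed positions summed over the 11 knock-in libraries, against 6 in the kilobase before it and 5.6 per kb between 5 and 10 kb after it. Around the CG-rich start furthest downstream, 2 positions lay in the kilobase before and 9 in the kilobase after it. The kilobase after the upstream Cntnap2 start held 1 position and the one before it 6, and at the Cntnap5b start these were 3 after and 9 before, in both cases more before the start than after it. These sums give the deeper libraries more weight and were not divided by the number of CGs, which is not known here outside the promoter windows.

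At the scale of whole genes, label counted by positions was lower at 6 of the 7 members in both day 0 libraries than in each of the other 9 knock-in libraries. By reads this held for 5 members. Such a gap was common: all 9 other libraries lay above both day 0 libraries in 17.9% of the 20415 genes tested by positions and in 20% of the 30249 tested by reads. Among long genes it was more common still, in 100 of the 222 other protein-coding genes of at least 500 kb by positions (45%) and in 89 by reads (40.1%), beside 5 of 5 and 4 of 5 members of that length. All 7 members together took 0.130%, 0.126% and 0.122% of the listed positions in the Het libraries. Over the days they took 0.0784% and 0.0823% (day 0), 0.123% and 0.119% (day 2), 0.129% and 0.127% (day 4) and 0.126% and 0.134% (day 8). The exception was Nrxn2, the shortest member. Its levels were spread over one range on all days.

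Nrxn3, a presynaptic receptor, had 384, 366 and 376 PPM in Het. Over the days it had 179 and 226 (day 0), 383 and 367 (day 2), 391 and 363 (day 4) and 373 and 395 (day 8). The day 0 libraries, which rest on 70 and 92 positions, stood apart, and the other 9 libraries overlapped each other.

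Cntnap2, which gathers voltage-gated potassium channels beside the node of Ranvier, had 352, 353 and 313 PPM in Het. Over the days it had 213 and 199 (day 0), 309 and 290 (day 2), 345 and 352 (day 4) and 334 and 363 (day 8). Day 0 was lowest, the day 2 libraries were the lowest of the rest, and days 4 and 8 overlapped.

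The 3 Cntnap5 genes are mouse paralogues of 1 family branch. Cntnap5a had 125, 114 and 123 PPM in Het, and over the days 66.6 and 86.0 (day 0), 122 and 123 (day 2), 136 and 133 (day 4) and 114 and 127 (day 8). Cntnap5b had 90.1, 95.5 and 83.7 in Het, and over the days 59.0 and 56.5, 76.5 and 80.3, 87.9 and 88.9, and 89.7 and 105. Cntnap5c had 101, 97.0 and 86.0 in Het, and over the days 61.5 and 46.7, 94.7 and 91.8, 94.6 and 99.0, and 92.3 and 106. In all 3 genes both day 0 libraries lay below the other 9 libraries by positions, as they did in 45% of the other long genes. By reads this held for Cntnap5a and Cntnap5c, while in Cntnap5b 8 of 9 libraries were above both day 0 libraries, the exception being Het replicate 3 with 66.1 RPM against 63.3 and 66.7 on day 0. Replicates carry the numbers of the sample titles, and the names of the deposited Het files carry other numbers.

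Cntnap4, found at the presynaptic side of some inhibitory and dopaminergic neurons, had 125, 106 and 106 PPM in Het. Over the days it had 76.9 and 88.4 (day 0), 125 and 110 (day 2), 120 and 111 (day 4) and 118 and 128 (day 8). Day 0 was again below the other 9 libraries. Nrxn2, the other neurexin, had 118, 124 and 130 in Het, and 128 and 120 (day 0), 122 and 128 (day 2), 109 and 128 (day 4) and 138 and 119 (day 8). All groups overlapped in Nrxn2, and 3 of the 9 other libraries lay above both day 0 libraries.

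**Figure D1:**
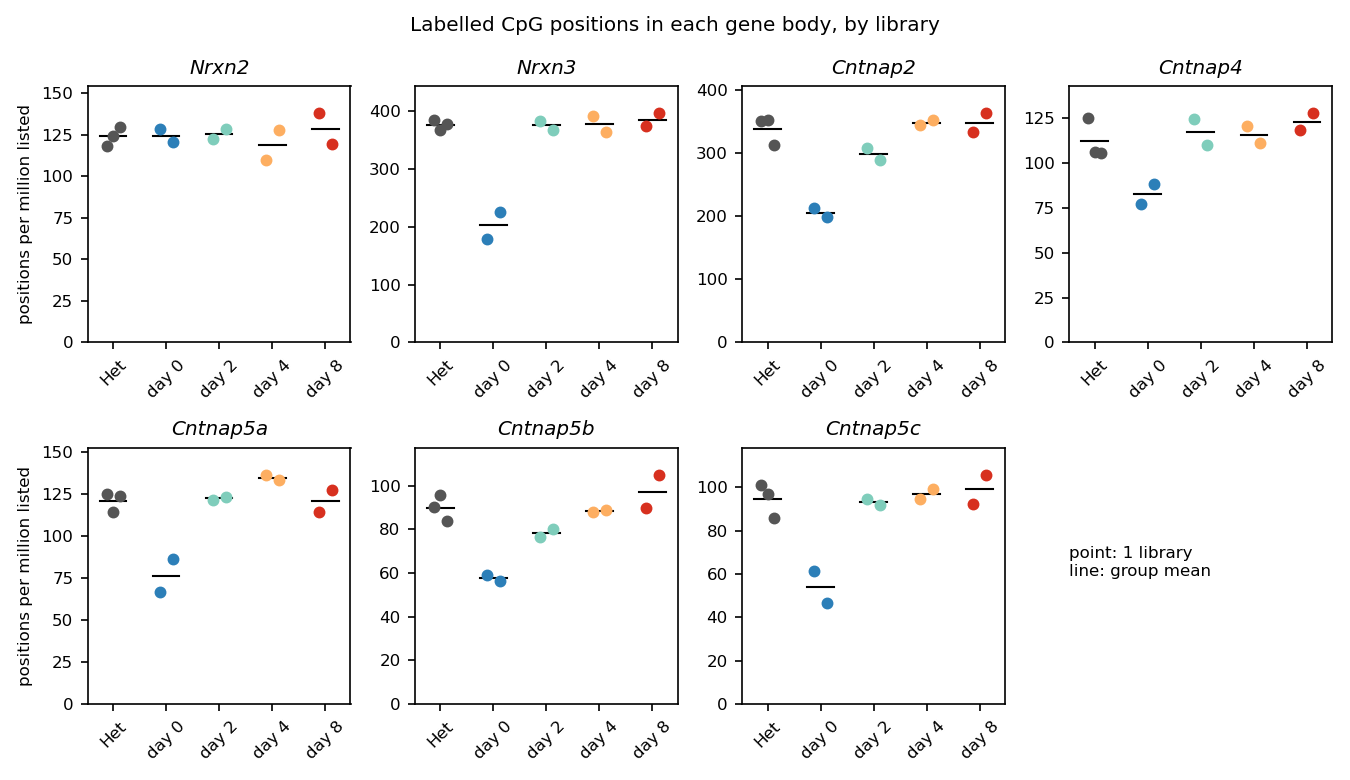
PPM (labelled positions per 1000000 listed positions of the library) in each gene body (vertical axes, each from 0), for Het and days 0 to 8; each point is 1 library and each line a group mean. In every panel but that of Nrxn2 both day 0 points lie below the other 9, and Nrxn2 ranges between 109 and 138 throughout.

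Tested over all genes, day 8 against day 0, Nrxn3 and Cntnap2 rose by reads. Nrxn3 had 353 and 387 RPM on day 8, against 171 and 216 on day 0, a log2 change of 0.87 ± 0.13 (SE; edgeR's quasi-likelihood test, Benjamini-Hochberg adjusted p = 0.0207). Cntnap2 had 319 and 355 RPM on day 8, against 210 and 200 on day 0, a log2 change of 0.65 ± 0.11 (SE; edgeR, adjusted p = 0.0273). In both genes both day 8 libraries lay above both day 0 libraries. These are 2 of 7 members, where 1.82% of the 30249 genes tested were called higher, 0.717% lower and 2.54% in either direction.

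The other 5 members did not pass the test by reads. Cntnap5a had a log2 change of 0.68 ± 0.16 (edgeR, adjusted p = 0.0581), Cntnap5c one of 0.58 ± 0.21 (0.149), Cntnap4 one of 0.47 ± 0.14 (0.0905) and Cntnap5b one of 0.40 ± 0.17 (0.198). Nrxn2 stood at -0.12 ± 0.14, with a 95% interval of -0.43 to 0.19 (edgeR, adjusted p = 0.682). The median log2 change was 0.58 over the members and 0.18 over all genes tested.

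A few positions carried many of the day 0 reads in the less labelled genes. In Cntnap5c the top position of each library held 1.97% and 1.25% of the gene's reads on day 8, against 19.8% and 19.2% on day 0. One such position, at chr17:58368904, had 57 reads in day 0 replicate 1 and none in replicate 2. In Cntnap5b the top position held 1.67% and 1.52% on day 8, against 15.4% and 13.5% on day 0.

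Counting each position once, 5 members rose. Nrxn3 changed by 0.85 ± 0.11 on the log2 scale (SE; edgeR, adjusted p = 2.85e-11) and Cntnap2 by 0.69 ± 0.11 (3.64e-07). Cntnap5c changed by 0.80 ± 0.21 (edgeR, adjusted p = 0.00723), Cntnap5b by 0.68 ± 0.20 (0.0288) and Cntnap5a by 0.58 ± 0.18 (0.0345). Cntnap4 had 0.50 ± 0.18 (edgeR, adjusted p = 0.0770) and Nrxn2 -0.011 ± 0.15 (0.982). Of the 20415 genes tested by positions, 2.23% were called higher, 2.8% lower and 5.03% in either direction. The spread that edgeR fitted over all genes (common biological coefficient of variation) was 0.00988 by positions and 0.488 by reads, so the tests on positions allow for little beyond counting error.

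By reads the calls were not stable with 1 library left out. In some of these fits no member passed and in others more did, and the number over all genes tested moved widely as well. The log2 changes in these fits were 0.71 to 1.05 for Nrxn3 and 0.55 to 0.73 for Cntnap2. In a fit of the day 8 and day 0 libraries alone no member passed by reads, and neither did any other gene. By positions 3, 2 and 3 members passed without day 0 replicate 1, day 0 replicate 2 and day 8 replicate 2, with Cntnap5a and Cntnap5b lost each time and Cntnap5c without day 0 replicate 2 (edgeR, adjusted p up to 0.376), and 5 or 6 passed without any other library. Nrxn3 (log2 change 0.73 to 1.07, adjusted p at most 0.000152 in edgeR) and Cntnap2 (0.65 to 0.79, at most 0.00274) passed in all 8 such fits. Where a day 0 or day 8 library was left out, 1 library stood for that day and was assumed to vary like those of the other days, so these fits do not check the spread within it.

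Day 8 against day 2, 0 of 7 members were called by reads or by positions with edgeR, where 1 of all genes was called by reads (0.00331%) and 46 by positions (0.225%). At an unadjusted p under 0.05 stood 611 genes by reads and 1751 by positions, and DESeq2 called 20 genes by reads, with 0 of the members. The log2 change of Nrxn3 by positions was 0.0047, with a 95% interval of -0.11 to 0.12. Cntnap2 and Cntnap5b had intervals above 0 by positions, at 0.19 (0.061 to 0.32; edgeR, adjusted p = 0.280) and 0.27 (0.044 to 0.50; 0.479), and neither passed after adjustment. Days 2 and 4 against day 0 were not tested.

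Het against day 8, 0 of 7 members and 0 of all genes (0%) were called by reads or positions with edgeR. At an unadjusted p under 0.05 stood 112 genes by reads and 846 by positions, and DESeq2 called 0 of the members by reads. All 7 log2 changes by positions were below 0, between -0.010 (Cntnap5a) and -0.16 (Cntnap4, 95% interval -0.30 to -0.013; edgeR, adjusted p = 1.00). By the same measure 11758 of the 23319 genes tested had a change above 0. So had 76 of the 222 other long genes, whose median was -0.031. For Nrxn3 the interval was -0.13 to 0.050 and for Cntnap2 -0.14 to 0.053. The labels do not say in which state the Het cells were grown.

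The wild-type libraries show what the assay lists without the engineered enzyme. Over the 7 members together the knock-in libraries held 306 to 4299 positions, against 3, 0 and 9 in WT and 14 and 2 in WT control, whose libraries listed 3861, 960, 5625, 9150 and 3501 positions in all. The share in WT control replicate 1 was 0.153% (exact 95% binomial interval 0.0837 to 0.257%), and the 0 of 960 in WT replicate 2 allows a share of up to 0.313% by a limit of 3 counts, or 0.384% by the exact 95% interval. Of the 28 wild-type positions in the members, 17 were also listed in a knock-in library, among them 7 of 12 in Nrxn3, 4 of 4 in Cntnap2 and 0 of 3 in Cntnap5b. The same share over all wild-type positions is not given here, so these counts are not read as particular to the members. All intervals here cover counting error only.

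Along the genes, the label was spread over the whole length rather than gathered in a few places. The members hold 64 windows of 100 kb, and in the Het, day 2, day 4 and day 8 libraries none of these was empty, while each day 0 library had 2 empty windows. In Nrxn3 the 16 windows held between 389 and 656 positions over the 11 knock-in libraries, with the highest at its 5′ end (chr12:88700001-88800000) and the lowest near its 3′ end (chr12:90100001-90200000).

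Cntnap2 was uneven. Its 22 windows held between 200 and 676 positions, and the highest was the last (chr6:47200001-47300000), with 32.9 PPM in Het and 22.5 (day 0), 32.3 (day 2), 31.0 (day 4) and 30.3 (day 8). The first window had 10.7 in Het and 5.07, 9.32, 9.48 and 8.36 over the days. The last window was thus more labelled than the first in every group, day 0 included. The window before the last held 317 positions, and those of chr6:47000001-47100000 and chr6:46900001-47000000 held 573 and 498. All 4 lncRNA genes inside Cntnap2 lie between chr6:46953770 and chr6:47257353, and their part in this label was not tested.

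Counted in positions, and not set against the level of the gene, windows of the shorter members spanned a narrower range. These genes also have fewer windows. The windows of Cntnap5a held 215 to 361 positions, those of Cntnap5b 241 to 283 and those of Cntnap5c 205 to 354, and the 3 windows of Cntnap4 held 623 to 797. The single Nrxn2 window held 2366, more than any window of the other members.

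In 45 of the 64 windows both day 8 libraries lay above both day 0 libraries in PPM, against 33.3% of all windows of the genome, and in 1 window both lay below, against 24%. By edgeR on window reads, 8 of 64 were called higher on day 8 and 0 lower, where 3.65% of 25338 windows were called higher, 3.91% lower and 7.56% in either direction. These were 5 in Nrxn3, 2 in Cntnap2 and 1 in Cntnap5a. By positions 9 were called higher, where 3.81% of 25103 windows were called higher, 6.56% lower and 10.4% in either direction, and 4 windows were called by both measures.

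The called windows rest on very few day 0 positions. The position counts below are raw, and the day 8 libraries listed far more positions in all than the day 0 libraries. Only the log2 changes allow for this. The Nrxn3 window chr12:90100001-90200000 listed 47 and 60 positions on day 8, against 1 and 2 on day 0, a log2 change of 2.24 ± 0.64 by positions (edgeR, adjusted p = 0.0101) and 2.33 ± 0.51 by reads (0.0260). Another, near the 5′ end, chr12:88800001-88900000, listed 73 and 68 positions on day 8, against 2 and 4 on day 0 (1.65 ± 0.49; edgeR, adjusted p = 0.0159). Day 8 lay above day 0 in both windows.

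In Cntnap2, chr6:46300001-46400000 listed 38 and 44 positions on day 8, against 0 and 1 on day 0 (log2 change 3.39 ± 0.92 by positions; edgeR, adjusted p = 0.00622), and chr6:45900001-46000000 listed 38 and 40, against 1 and 0 (3.32 ± 0.93; 0.00843). A further Cntnap2 window, chr6:46900001-47000000, listed 77 and 66, against 1 and 5 (1.67 ± 0.49; 0.0141).

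The other called windows of Nrxn3 were chr12:90200001-90300000 by positions (73 and 65 on day 8, against 4 and 3 on day 0; edgeR, adjusted p = 0.0378) and, by reads, chr12:89200001-89300000 (log2 change 1.44 ± 0.39; 0.0484), chr12:89600001-89700000 (2.25 ± 0.43; 0.0190) and chr12:89900001-90000000 (1.65 ± 0.39; 0.0335). In Cntnap5a, chr1:115700001-115800000 at the end nearest its first base listed 35 and 41 positions on day 8, against 0 and 1 on day 0 (3.29 ± 0.93; edgeR, adjusted p = 0.00923), and chr1:116400001-116500000 was called by reads (2.67 ± 0.59; 0.0267). Cntnap5c had 1 called window by positions, chr17:58000001-58100000, with 45 and 46 on day 8, against 3 and 0 on day 0 (2.01 ± 0.67; edgeR, adjusted p = 0.0334). Cntnap4 also had 1, chr8:112600001-112700000, with 111 and 98 on day 8, against 7 and 6 on day 0 (1.11 ± 0.35; edgeR, adjusted p = 0.0309). The called windows of Nrxn3 were thus spread from near its 5′ end to its 3′ end, and Cntnap5b and Nrxn2 had none.

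With so few day 0 positions the size of these changes is loosely set. With 1 library left out, the number of member windows that passed by reads moved widely, and so did the number over all windows of the genome. Such fits leave 1 library for its day, so their counts are not read as a result about the members. No member window was called by reads in day 8 against day 2 or in Het against day 8 (0.00395% and 0% of all windows), nor by positions (0.143% and 0%).

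**Figure D2:**
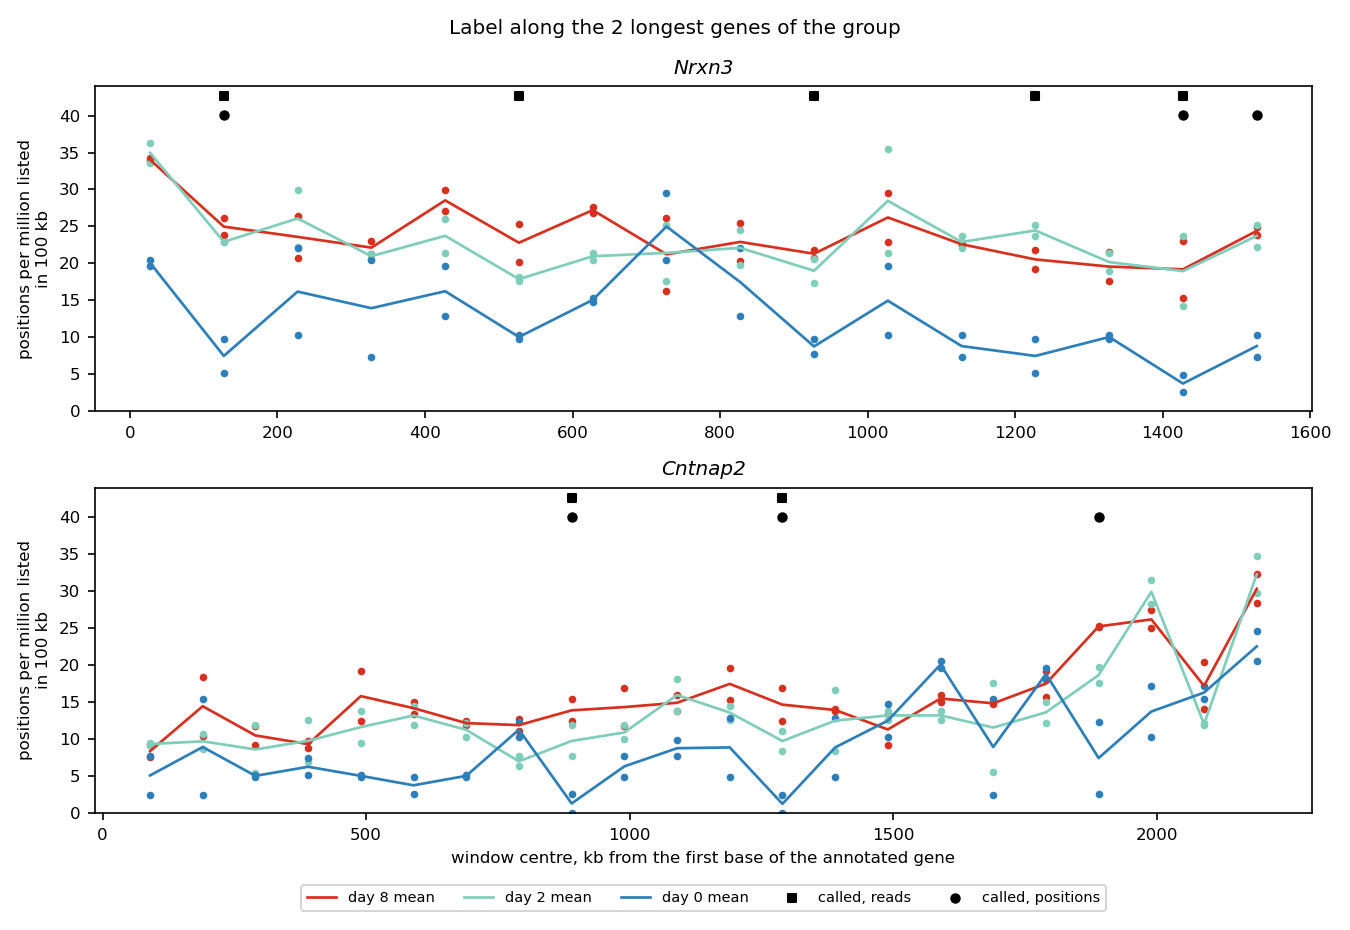
PPM in each 100 kb window (vertical axes) by distance of the window centre from the first annotated base of Nrxn3 and Cntnap2, for days 8, 2 and 0; lines are group means, points are libraries, and black symbols at the top mark windows called higher on day 8 than on day 0 by reads (squares) or positions (circles). Day 0 runs below days 8 and 2 along most of both genes, and the Cntnap2 label is highest at the 3′ end.

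Replicates agreed in which windows of the members held more label and less in which CpGs carried it. The 64 windows come from genes with different levels, which enter the correlation, and agreement along single genes was not computed. Across the 64 windows the Spearman correlation between replicates, which share the base composition of the windows, was 0.734 to 0.794 in Het, 0.497 (day 0), 0.792 (day 2), 0.823 (day 4) and 0.814 (day 8). The day 8 replicates shared 587 positions in the members (15.2% and 16.8% of each library's positions), and the day 0 replicates shared 7 (2.29% and 2.09%). No position was listed in all 11 knock-in libraries.

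Single CpGs recurred most in Nrxn2. Of its 1237 distinct positions 35.7% were seen in 1 library, and the most recurrent, chr19:6492984, was listed in 8 libraries. In Nrxn3 58.9% of 4987 positions were seen in 1 library, and in Cntnap2 60.5% of 4619. The highest such share was that of Cntnap5b, 66.0% of 1315.

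The members differed widely in label per base. In Het, where no day library enters, Nrxn2 had 108 PPM per 100 kb, Cntnap4 35.9, Nrxn3 23.3, Cntnap2 15.1, Cntnap5c 14.6, Cntnap5a 13.4 and Cntnap5b 12.5. The median over the 227 protein-coding genes of at least 500 kb was 29.3. All 5 members of that length were below this median, with 15 (Cntnap5b) to 88 (Nrxn3) of the 227 genes lower than they.

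The change between day 8 and day 0 went with this density over long genes in general. Across the 227 genes the Spearman correlation between density in Het and the log2 change was -0.737 by positions and -0.701 by reads, a description across genes, which are not independent replicates. The 57 least dense genes include Cntnap2, Cntnap5a, Cntnap5b and Cntnap5c, and of the other 53 of them 25 were called higher and 0 lower by positions, with a median log2 change of 0.56. Of the 57 genes next in density, which include Nrxn3, 25 of the other 56 were called higher and 2 lower, with a median of 0.39. Of the densest genes 2 of 57 were called higher and 27 lower, with a median of -0.24. The log2 changes of the 5 long members, 0.58 to 0.85, thus lie among those of other sparsely labelled long genes. Whether they differ from such genes was not tested.

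**Figure D3:**
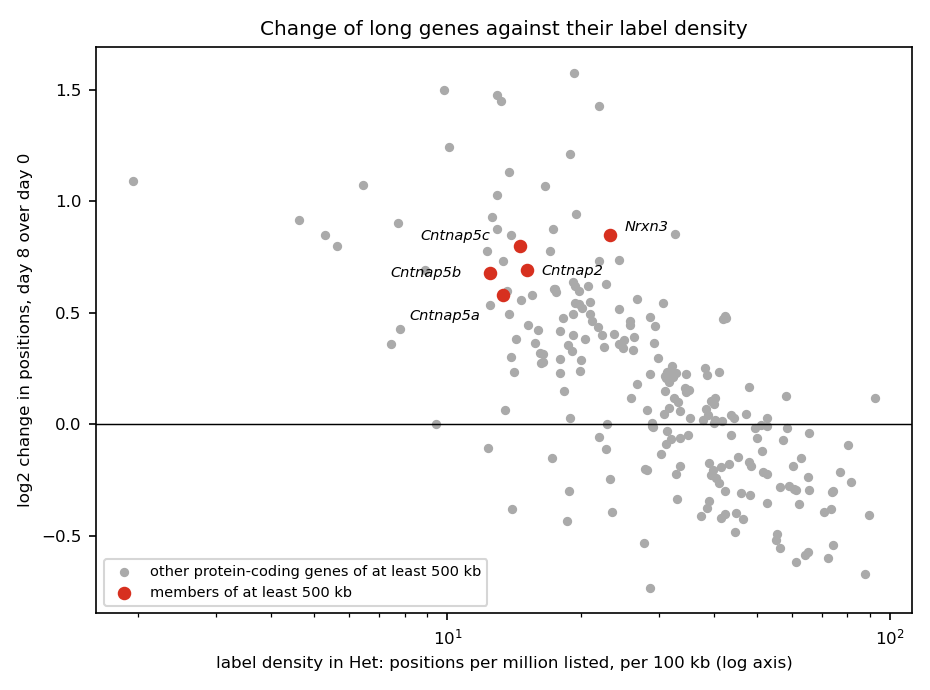
Log2 change in positions of day 8 over day 0 (vertical axis) against label density in the Het libraries (horizontal log axis) for 227 protein-coding genes of at least 500 kb; red points are the 5 members of that length. The members lie at the sparse end, at changes of 0.58 to 0.85, among other genes with like values.

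The partners of these receptors were read in the same fit. Of 21 neurexin ligand genes, 1 was called higher by reads on day 8 against day 0 and 0 lower, where 1.82% of all genes tested were called higher: Lrrtm4, a postsynaptic leucine-rich repeat ligand (0.87 ± 0.16; edgeR, adjusted p = 0.0333). By positions 2 of the 15 tested were called higher, where 2.23% of all genes were, Lrrtm4 (0.59 ± 0.17; edgeR, adjusted p = 0.0153) and Nxph1, a secreted neurexin ligand (0.95 ± 0.27; 0.0159). The median log2 change was 0.59 by reads and 0.27 by positions, and the first includes genes with large errors that were not tested by positions, such as C1ql2 (6.08 ± 3.71 by reads; edgeR, adjusted p = 0.380) and Cbln1 (4.48 ± 2.26; 0.282), named after their values were seen. Nlgn1, the neuroligin with the adjusted p nearest the threshold and named after its value was seen, had 0.52 ± 0.14 by reads (edgeR, adjusted p = 0.0735).

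Of the 6 contactin genes, the pairing partners of contactin-associated proteins, 1 was called higher by reads, Cntn4 (0.56 ± 0.11; edgeR, adjusted p = 0.0407), with a median of 0.46. By positions Cntn4 (0.61 ± 0.15; edgeR, adjusted p = 0.00245) and Cntn3 (0.66 ± 0.21; 0.0461) were called, with a median of 0.38. Of 13 intracellular and axonal partners, 1 was called by reads, the synaptic scaffold gene Dlg2 (1.06 ± 0.11; edgeR, adjusted p = 0.0122), and by positions Dlg2 was again the only one of 11 tested. The median of this list differed in sign between the measures, at -0.063 by reads and 0.26 by positions, where 8 of the 11 changes were above 0. No gene of these 3 lists was called lower in this comparison by either measure. Of all genes tested, 1.82% were called higher by reads and 2.23% by positions. The 222 other long genes had 28 higher and 20 lower by reads and 55 and 35 by positions. Lrrtm4, Cntn4 and Dlg2 are among these long genes. They had 17.6, 17.5 and 19.6 PPM per 100 kb in Het, below the median of 29.3 over long genes.

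Over the 11 knock-in libraries, the pattern of Nrxn3 was most like those of Foxp2, a transcription factor gene (Pearson r = 0.995 of log2 PPM), and Kcnd2, a potassium channel gene (0.984), among 222 other long genes whose median r was 0.638. That of Cntnap2 was most like those of Nrg3, a neuregulin (0.994), and Inpp4b, a phosphoinositide phosphatase (0.987), with a median of 0.627. Between members r was 0.823 to 0.971 for the 15 pairs without Nrxn2 and between -0.258 and -0.0569 for the 6 pairs with it. Libraries of one group share their state and depth, so these values are a description and carry no test.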

How the data were processed

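Label at CpG sites was measured in 16 libraries. The submitters' processing notes name mm10 and the programs BWA 0.7.17-r1188, cutadapt 4.4 and SAMtools 1.12. How duplicates were handled is not stated. The values deposited by the authors are whole-number read counts per listed position, not normalized, and unlisted positions were taken as 0. Reads carry no molecular identifiers and can be PCR copies, so distinct positions were tested beside reads.

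Counts were summed over RefSeq gene bodies of 21887 protein-coding and 12727 lncRNA genes (GRCm38.p6, whose chromosomes have mm10 coordinates) and over a 100 kb grid, where a window belonged to a member if its midpoint lay in the gene. edgeR 4.0.16 (quasi-likelihood test, filterByExpr, TMM, Benjamini-Hochberg at 0.05 over all genes or windows) was fitted to the 8 day libraries, or to these and the 3 Het libraries for Het against day 8. All 7 members passed edgeR's filter in these fits. edgeR's test gives no SE. The SE printed is the absolute log2 change over the square root of the test's F statistic. The 95% intervals of log2 changes were built from it, and both are approximate, most of all in windows with few day 0 positions. DESeq2 1.42.0, other normalizations, no filter, fewer libraries, reads capped at 10 per position, uniquely annotated positions, windows of 50 and 200 kb, a replicate block and leaving out each library were alternatives. The tests for day 8 against day 0 were tried on simulated data with known changes in genes at or above the median count. By reads 21% of 2-fold and 67% of 4-fold changes were recovered, and 3 unchanged genes were called. By positions these were 39%, 95% and 6. The simulated spread followed the trend over counts for reads and was set gene by gene for positions. The genes also differed (29615 by reads and 19658 by positions), so these rates do not compare the 2 measures. A change that did not pass may therefore have been missed.

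The members, lists and tests were chosen with earlier results of these data known. All members were named, with up to 3 called genes per list, the 2 long genes most like Nrxn3 and Cntnap2, and called, highest and lowest windows. Likeness used log2(PPM + 1), where PPM is positions per 1000000 listed positions. R 4.3.3 and Python 3.11.15 were used.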

Additional observations from a re-analysis of the deposited data

How the results depend on the processing

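Of the 483 alternative values of single members, 30 turned sign, all of them in changes that did not pass edgeR's test before or after, at -0.081 to 0.11 on the log2 scale; 6 members (Nrxn2 left out) kept a positive change in day 8 against day 0 under all 17 alternatives by reads and all 15 by positions. By setting, these were for Nrxn2 in day 8 against day 0 0.095 by capped reads, and by positions 0.035 with library totals, 0.063 with no filter and 0.016 without shared positions; in day 8 against day 2 0.0047 (Nrxn3) and 0.050 (Cntnap5c) by positions and -0.017 (Cntnap4) by capped reads; and in Het against day 8 0.0088 (Cntnap2) with the replicate block and 0.041 (Cntnap5a) by capped reads. With 1 library left out, the ranges that crossed 0 were -0.089 to 0.098 for Nrxn2 by positions in day 8 against day 0; by reads in day 8 against day 2 -0.081 to 0.11 (Nrxn2), -0.065 to 0.16 (Cntnap4) and -0.22 to 0.11 (Cntnap5c); and by reads in Het against day 8 -0.11 to 0.084 (Nrxn2), -0.11 to 0.055 (Nrxn3), -0.14 to 0.043 (Cntnap2), -0.081 to 0.038 (Cntnap5a), -0.31 to 0.028 (Cntnap5b) and -0.27 to 0.055 (Cntnap5c). Members called by reads in day 8 against day 0 numbered 2, and 5 with DESeq2, with capped reads and by positions, 0 with the libraries compared alone, 1 with the replicate block and 0 to 5 with 1 library left out; all genes called numbered 767, and 5294 with DESeq2, 0 with the libraries compared alone, where 4 libraries leave fewer degrees of freedom, 142 with the block, 1163 with capped reads and 0 to 7648 with 1 library left out. By positions the members called numbered 5, and 3 with DESeq2, 2 with the libraries compared alone and 2 to 6 with 1 library left out, and genes called 1026, 509, 430 and 181 to 928. Member windows called by reads numbered 8, and 14 of the larger windows of 200 kb, 5 with the block and 0 to 28 with 1 library left out, and all windows called 1915, 1174 with the block and 0 to 8146 with 1 left out. In day 8 against day 2, genes called numbered 1, and 20 with DESeq2, 46 by positions, 0 with capped reads and 0 to 1 with 1 library left out, and windows called 1, 36 by positions, 0 at 50 kb and 0 to 4 with 1 left out; in Het against day 8, windows called numbered 0, and 0 to 1 with 1 left out. The labels do not say whether replicate numbers pair these samples. Replicate differences correlated at -0.0124 to 0.0289 between days over 5323 genes, but counting error can hide a shared effect, so this does not settle the pairing. With the replicate block Cntnap2 by reads had an adjusted p of 0.0506 and Nrxn3 one of 0.0429 in edgeR. The cause of these shifts was not tested. Depth limits day 0 most, where single members rest on 19 to 92 positions a library.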
